A study of Mus musculus with 2040 samples.

Results

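Dio2, Crym, Slco1c1, Thra, Thrb, Hr and Klf9 are 7 genes that handle thyroid hormone or answer to it. They were chosen by name, as 7 of the 32245 gene columns of a cell by gene expression table, and all 7 passed the filter on low levels in every comparison made. Thyroid hormone reaches the brain mainly as the prohormone T4, which has to be carried across cell membranes and converted by a deiodinase to the active form T3. In the brain, T4 uptake and its conversion are classically ascribed to astrocytes, and T3 is then passed to neurons and to oligodendrocytes, whose maturation it promotes. Inside the nucleus T3 binds the receptors encoded by Thra and Thrb, which sit on DNA with retinoid X receptors and switch target genes such as Klf9 and Hr.

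The cells came from the brains of C57Bl/6J mice, and each of the 47 mice had received 1 of 30 vectors, adeno-associated viruses in which an enhancer or promoter drives the fluorescent protein SYFP2. Labelled cells were flow sorted singly and profiled by SMARTer RNA sequencing, which gave 2040 cells with a median of 434102 reads (57873 to 1455022). The dissected tissue was VISp (commonly short for primary visual cortex) in 41 mice with 27 vectors and 1785 cells, MB/HB (commonly midbrain and hindbrain) in 4 mice, and CBX (commonly cerebellar cortex) in 2 mice (81 cells). The CBX mice, MouseID-614198 and MouseID-651221, both carried the vector eHGT_375m. Of the MB/HB mice, MouseID-615516 and MouseID-651222 carried eHGT_381h, and MouseID-651228 and MouseID-651229 carried MGT_E160m. Each vector went into a single tissue, so tissue and vector cannot be told apart in any tissue comparison. Each cell is present only because its vector labelled it, no unlabelled or untreated cells were analysed here, and age and sex are not given in the sources used here.

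Cell classes were rebuilt from the data by clustering without the 7 genes and without the other genes of their pathway, and were named from marker lists. This gave 969 astrocyte-like, 972 oligodendrocyte-like and 99 neuron-like cells. All 10 astrocyte markers exceeded 1 CPM (read counts scaled to 1000000 per cell) in the astrocyte-like cells of each tissue. In VISp, all 12 oligodendrocyte markers and all 11 neuron markers did so in the oligodendrocyte-like and neuron-like cells. This is no separate check of the names, since the same lists named the clusters. A level of 1 CPM also does not set the classes apart. All 10 astrocyte markers exceeded it in VISp oligodendrocyte-like cells, and all 12 oligodendrocyte markers in MB/HB astrocyte-like cells. The astrocyte-like cells of the 3 tissues lay mainly in different clusters. Of the 81 CBX cells, 79 lay in a cluster led by Gdf10, Gria1 and Hopx, markers of Bergmann glia, the specialised astrocytes of the cerebellar cortex; the summed level of 4 such markers was 13016 and 13822 CPM in the CBX mice and 452.05 to 984 CPM in VISp astrocyte-like mice. These markers are not specific to them, since VISp oligodendrocyte-like mice had 4811 to 8747 CPM. Of the MB/HB astrocyte-like cells, 93.3% lay in a cluster led by Agt, Aldh1a1 and Slc6a11, and the VISp cells were spread mainly over the other 3 astrocyte-like clusters. A further 4.70% of the MB/HB cells, 7 cells of 1 mouse, lay in the main CBX cluster. The 4 Bergmann glia markers summed to 339.5 to 2445 CPM in MB/HB mice. Gdf10 was 440.7 CPM in MouseID-615516 and 0 in the other MB/HB mice. The part of these cells in the MB/HB values was not tested. Cells in which most markers of another class also had reads made up 3.92% of VISp, 11.4% of MB/HB and 6.17% of CBX astrocyte-like cells, 7.48% of VISp oligodendrocyte-like cells and 16.7% of VISp neuron-like cells.

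A level below is the mean CPM over the cells of a class in 1 mouse, and only mice with at least 10 such cells were used: 19 VISp, 4 MB/HB and 2 CBX mice for astrocyte-like cells, 22 VISp mice for oligodendrocyte-like cells and 3 VISp mice for neuron-like cells. The mouse is the replicate in every test, and the intervals given for shares of cells count cells pooled over mice. Differences are on the scale log2(mean CPM + 1), which understates the change of genes near 0, and are differences between means of these log2 values over mice. They carry their standard error (SE) and a p-value from limma adjusted over all genes tested, two-sided, with 0.05 as the threshold. A fold is the ratio of the mean CPM over mice, so it is averaged differently from the log2 difference beside it and can be larger or smaller. Levels of different genes are compared only per kilobase of exon.

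**Figure D1:**
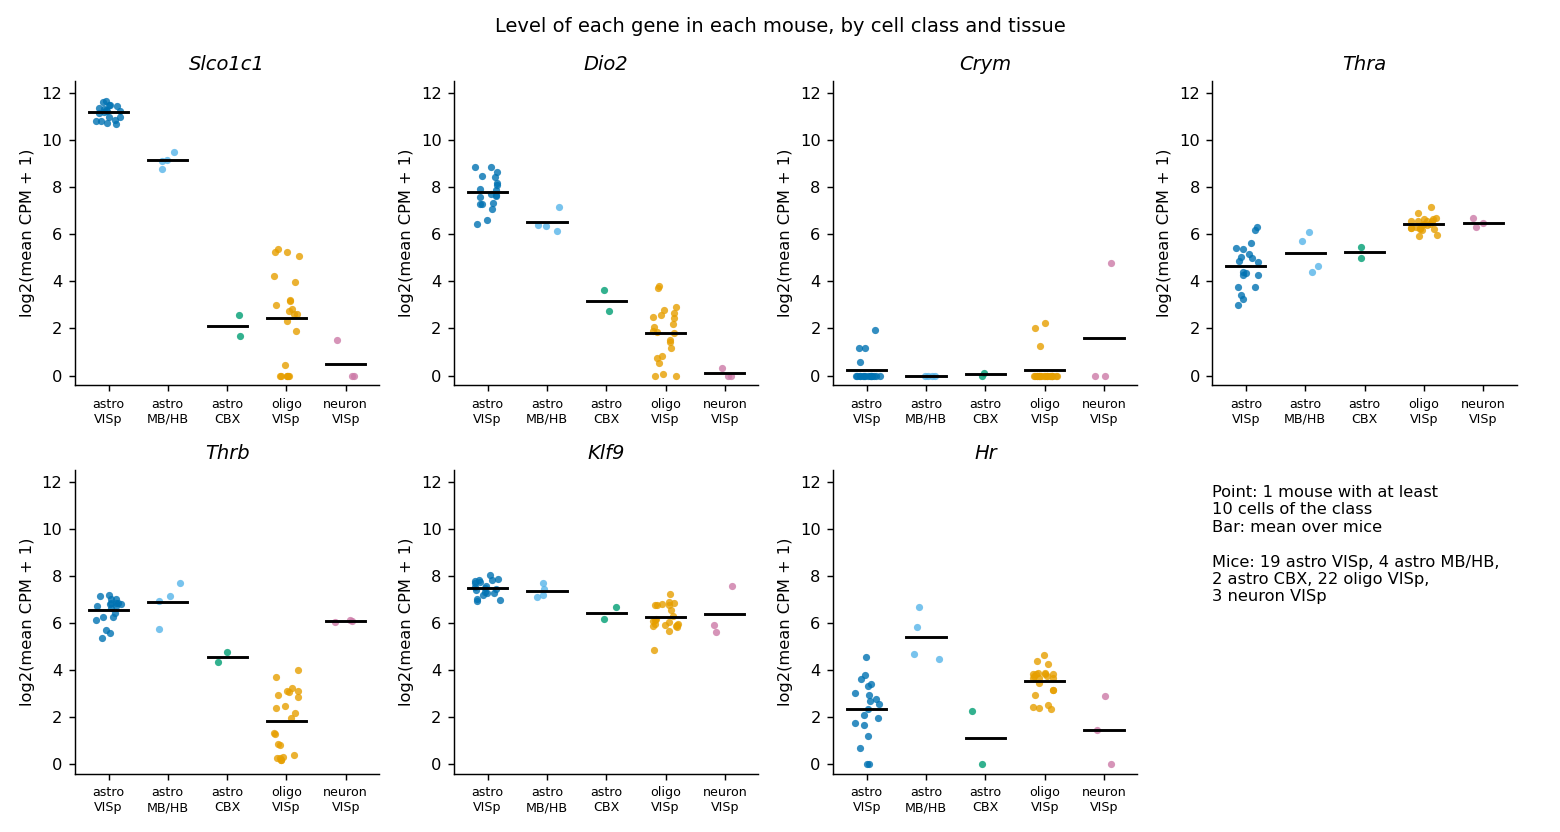
Level of each of the 7 genes (one panel per gene) as log2(mean CPM + 1), by cell class and tissue; a point is 1 mouse with at least 10 cells of the class and a bar is the mean over mice. Slco1c1 and Dio2 were highest in VISp astrocyte-like cells, Thrb was low in oligodendrocyte-like cells, and Crym was at or near 0 in all but 1 neuron-like point at 26.5 CPM.

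In VISp astrocyte-like cells the transporter came first by a wide margin. Per kilobase of exon, Slco1c1 stood at 451.8 ± 92.3 CPM (SD, n = 19 mice), Dio2 at 41.9 ± 19.5, Klf9 at 37.6 ± 8.43, Thrb at 13.2 ± 4.20, Thra at 6.36 ± 4.31, Hr at 0.850 ± 0.795 and Crym at 0.0911 ± 0.217. The ranges of mean ± SD overlapped for Dio2 and Klf9, for Thrb and Thra and for Hr and Crym, while Slco1c1 stood clear of every other gene. In MB/HB astrocyte-like cells Slco1c1 was also first, at 109.4 ± 21.6 CPM per kilobase (n = 4), followed by Klf9 at 34.4 ± 6.59, Thrb at 17.6 ± 8.40, Dio2 at 16.1 ± 5.84, Thra at 8.87 ± 4.85 and Hr at 7.26 ± 5.27, of which the last 4 overlapped in part. In CBX Klf9 was first at 17.8 ± 4.59, followed by Thra at 8.02 ± 1.77, Thrb at 3.06 ± 0.683, Dio2 at 1.46 ± 0.696, Slco1c1 at 0.680 ± 0.372 and Hr at 0.277 ± 0.392 CPM per kilobase (n = 2).

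Slco1c1 encodes OATP1C1, a membrane carrier that takes up T4. Its gene lies at chr6:141524368-141570177 on the plus strand (GRCm38). In VISp astrocyte-like cells its lowest, median and highest level was 1639, 2388 and 3198 CPM over 19 mice. The 4 MB/HB mice had 557.2, 712.8, 439.6 and 560.4 CPM, and the CBX mice had 2.16 and 4.89 CPM. The 3 tissues did not overlap: every MB/HB mouse lay below every VISp mouse, and both CBX mice lay far below MB/HB. The CBX level came from 1 cell in each mouse, that is, 2 of 81 cells with a median of 139.4 CPM, whereas 97.7% of VISp and 76.5% of MB/HB cells had reads. The difference of CBX from VISp was -9.06 (SE 0.23, adjusted p = 3.48e-24), a 664.5-fold lower mean CPM. MB/HB was lower than VISp by 4.13-fold (log2 difference -2.04, SE 0.17, adjusted p = 8.95e-11), and CBX was lower than MB/HB by 160.95-fold (-7.02, SE 0.27, adjusted p = 5.31e-19).

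Dio2 encodes type 2 deiodinase, the enzyme that converts T4 to T3. Its gene lies at chr12:90724552-90738438 on the minus strand. The lowest, median and highest VISp astrocyte-like level was 84.7, 207.4 and 464.3 CPM. The MB/HB mice had 143.6, 82.1, 79.4 and 68.5 CPM, and the CBX mice had 11.3 and 5.61 CPM. CBX lay below all other mice, and 3 of the 4 MB/HB mice lay below the lowest VISp mouse. The share of cells with at least 1 Dio2 read was 82.3% in VISp (739 cells, exact 95% interval 79.3 to 84.96%), 46.3% in MB/HB (38.1 to 54.7%) and 18.5% in CBX (10.8 to 28.7%). Thinned to 50000 reads per cell and averaged over mice, these shares were 77.2%, 39.6% and 12.3%. Without thinning, the share in single mice ran from 57.7 to 100% in VISp and from 34.4 to 62.5% in MB/HB, which overlap. In CBX it ran from 15.8 to 20.9%. The intervals cover counting error among cells and not the spread between mice. Dio2 and Slco1c1 reads were found in the same cell in 81.1% of the 739 VISp astrocyte-like cells, that is, in 98.5% of the cells with a Dio2 read and 82.96% of those with a Slco1c1 read. The difference of CBX from VISp was -4.61 (SE 0.45, adjusted p = 3.75e-09), a 28.8-fold lower mean CPM, and MB/HB was lower than VISp by 2.61-fold (-1.28, SE 0.33, adjusted p = 0.00873). CBX was lower than MB/HB by 11-fold (-3.33, SE 0.52, adjusted p = 2.49e-05), a call lost with log2 values averaged over cells (-2.19, adjusted p = 0.0855). Reads of Dio2 and of Gm26512, a noncoding gene on the opposite strand whose start overlaps that of Dio2, cannot be told apart over the exon bases they share (chr12:90738201-90738438), since the strand used in counting is not given in the sources used here. Gm26512 was also lower in CBX (-4.28, adjusted p = 3.48e-07) and in MB/HB (-2.66, adjusted p = 1.03e-05) than in VISp.

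The 250 bases before a start site (the first for Thrb) are shown for the 3 genes with the largest falls from VISp to CBX. They let a reader set the control regions side by side (RefSeq, GRCm38.p6, 5′ to 3′ on the gene's strand). Capitals mark matches to AGGTCA (the half-site bound by thyroid hormone receptors and related receptors), TGACGTCA (the cAMP response element) or TATAAA (the TATA box), searched on both strands.
Dio2, chr12:90739039-90739288, minus strand: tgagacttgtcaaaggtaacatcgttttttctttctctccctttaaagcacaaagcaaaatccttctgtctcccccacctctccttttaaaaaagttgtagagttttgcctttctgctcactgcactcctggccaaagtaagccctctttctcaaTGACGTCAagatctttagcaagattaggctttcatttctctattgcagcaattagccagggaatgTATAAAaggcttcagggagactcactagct
Slco1c1, chr6:141524104-141524353, plus strand: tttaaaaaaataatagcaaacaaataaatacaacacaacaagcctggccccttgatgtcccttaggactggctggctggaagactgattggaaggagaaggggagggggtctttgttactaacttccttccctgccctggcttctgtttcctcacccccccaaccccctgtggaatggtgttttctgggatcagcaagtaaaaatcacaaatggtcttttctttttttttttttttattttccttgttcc
Thrb, first start, chr14:17660710-17660959, plus strand: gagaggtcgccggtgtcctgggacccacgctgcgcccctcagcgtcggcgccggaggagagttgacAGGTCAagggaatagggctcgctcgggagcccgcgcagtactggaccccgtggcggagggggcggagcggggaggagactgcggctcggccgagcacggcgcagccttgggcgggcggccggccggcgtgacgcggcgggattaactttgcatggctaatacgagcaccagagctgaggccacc
In the Dio2 stretch the cAMP response element began 95 bases and the TATA box 30 bases before the start. In the Thrb stretch there was 1 AGGTCA half-site, and no match was found in the Slco1c1 stretch. Of 32851 promoters of this length, 14.02% held AGGTCA, 1.55% held TGACGTCA and 12.4% held TATAAA. The direct repeat AGGTCA with a spacer of 4 bases, present in 0.0152% of all promoters, was in none of those matched to the 7 genes, which were those of Dio2, Slco1c1, Thrb and Klf9. Start sites differ between annotations: the RefSeq start of Dio2 lies 600 bases upstream of the GENCODE gene start.

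Crym encodes mu-crystallin, a cytosolic protein that binds T3. Its gene lies at chr7:120186380-120202111 on the minus strand. Of all 2040 cells, 19 had a Crym read, in 13 mice. The level was 0 in 15 of 19 VISp astrocyte-like mice and at most 2.86 CPM in the others, 0 in all 4 MB/HB mice, and 0 and 0.0876 CPM in the CBX mice. With no MB/HB astrocyte-like cell positive, a share of up to 2.01% of cells with a read is allowed. None of the 3 tissue differences passed the test (-0.20, -0.26 and 0.06, adjusted p = 0.857, 0.659 and 0.989).

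Of the 2 receptors, Thrb differed between tissues past the threshold and Thra did not, and the difference between the receptors was not tested. Thrb, at chr14:17660261-18038090 on the plus strand, encodes thyroid hormone receptor beta. Its lowest, median and highest level in VISp astrocyte-like cells was 39.8, 105.3 and 145.96 CPM. The MB/HB mice had 141.6, 52.4, 203.5 and 122.3 CPM and the CBX mice 26.2 and 19.1 CPM. Both CBX mice lay below all other mice, and MB/HB overlapped VISp. CBX was lower than VISp by 4.31-fold (-1.99, SE 0.41, adjusted p = 6.46e-04) and lower than MB/HB by 5.74-fold (-2.33, SE 0.47, adjusted p = 8.82e-04). The MB/HB difference from VISp was 0.34 (95% interval -0.28 to 0.95, adjusted p = 0.565). Without CBX MouseID-651221 the Thrb difference of CBX from VISp was -1.77 (adjusted p = 0.0651), past the threshold no longer.

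Thra encodes thyroid hormone receptor alpha and lies at chr11:98740638-98769006 on the plus strand. Its level in VISp astrocyte-like cells ran from 7.04 over a median of 27.5 to 78.4 CPM. The MB/HB mice had 24.3, 20.3, 52.1 and 66.98 CPM and the CBX mice 31.2 and 42.8 CPM. All MB/HB and CBX mice lay within the VISp range. None of the 3 tissue differences passed the test: CBX minus VISp was 0.59 (95% interval -0.72 to 1.90, adjusted p = 0.736), MB/HB minus VISp 0.58 (-0.39 to 1.55, adjusted p = 0.519) and CBX minus MB/HB 0.01 (-1.52 to 1.53, adjusted p = 1). The 3′ end of Thra shares exon bases with Nr1d1, a clock gene on the opposite strand (overlap chr11:98767932-98769006), so Thra is uncertain wherever Nr1d1 reads could be counted for it. Nr1d1 was lower in MB/HB than in VISp (-0.90, adjusted p = 0.0107), and its CBX difference was -0.26 (adjusted p = 0.773).

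The balance of the receptors was compared per kilobase of exon, without a test. Thrb exceeded Thra in 18 of 19 VISp and 4 of 4 MB/HB mice, and in 0 of 2 CBX mice. The CBX means were 8.02 CPM per kilobase for Thra and 3.06 for Thrb, against 6.36 and 13.2 in VISp. Within VISp astrocyte-like cells the receptors were found together in 220 of 739 cells, which is 61.97% of the cells with a Thra read and 50% of those with a Thrb read, while 59.5% of all 739 cells had a Thrb read. In cells with reads Thrb had a median of 105.7 CPM and Thra of 16.6 CPM. These 2 medians are not per kilobase (7.403 kb of exon for Thrb and 4.614 kb for Thra), so the genes are not compared by them.

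**Figure D2:**
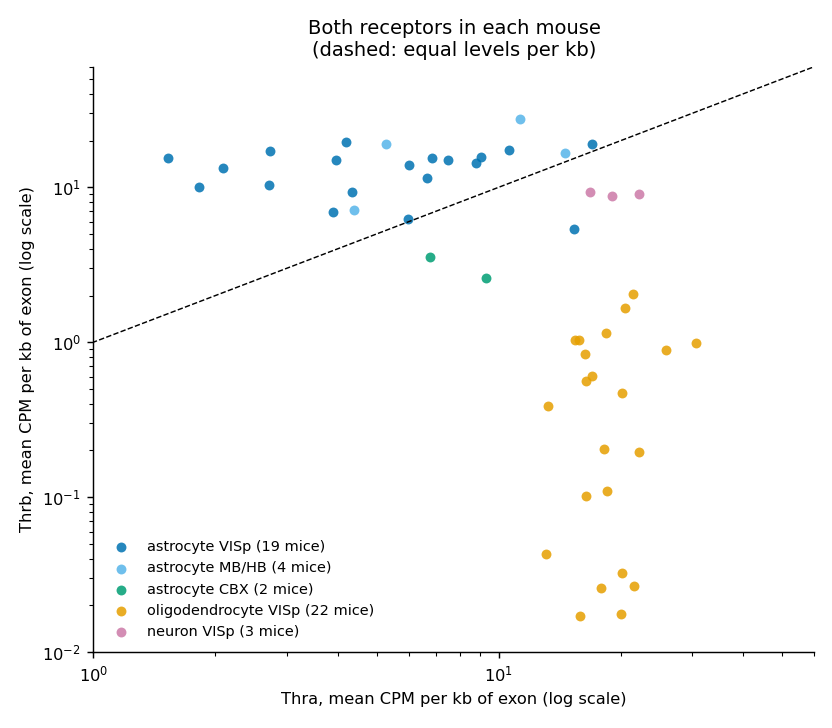
Thrb (vertical) against Thra (horizontal), each as mean CPM per kilobase of exon on log axes; a point is 1 mouse and the dashed line marks equal levels. Of the VISp astrocyte-like mice 18 of 19 lie above the line, while all 22 oligodendrocyte-like, 3 neuron-like and 2 CBX mice lie below it.

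Klf9 and Hr are targets of the receptors. Klf9, at chr19:23141226-23168134 on the plus strand, encodes a zinc finger transcription factor that T3 and glucocorticoids both induce. Its lowest, median and highest VISp astrocyte-like level was 119.5, 177.2 and 260.7 CPM. The MB/HB mice had 146.1, 137.6, 170.9 and 208.3 CPM and the CBX mice 101.4 and 70.2 CPM. Both CBX mice lay below all others. CBX was lower than VISp by 2.11-fold (-1.06, SE 0.25, adjusted p = 0.0036) and lower than MB/HB by 1.93-fold (-0.95, SE 0.29, adjusted p = 0.0374), and MB/HB minus VISp was -0.11 (95% interval -0.49 to 0.27, adjusted p = 0.754). The Klf9 call against VISp was lost without CBX MouseID-651221 (-0.80, adjusted p = 0.263) and with log2 values averaged over cells (-0.49, adjusted p = 0.553). That against MB/HB missed the threshold when MouseID-614198 (adjusted p = 0.0593), MouseID-651221 (0.468), MouseID-651228 (0.0661) or MouseID-651229 (0.0933) was left out, and with log2 values averaged over cells (-0.10, adjusted p = 0.932).

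Hr encodes Hairless, a nuclear corepressor and a classic T3 target in brain. Its gene lies at chr14:70552212-70573548 on the plus strand. The lowest, median and highest VISp astrocyte-like level was 0, 4.96 and 22.6 CPM. The MB/HB mice had 24.5, 99.8, 55.4 and 21.3 CPM and the CBX mice 3.84 and 0 CPM. Of the MB/HB mice, 3 lay above the highest VISp mouse and the fourth just below it. MB/HB was higher than VISp by 8.55-fold (3.07, SE 0.69, adjusted p = 0.00216) and higher than CBX by 26.2-fold (the CBX minus MB/HB difference was -4.27, SE 1.08, adjusted p = 0.00829). CBX minus VISp was -1.20 (adjusted p = 0.567). Hr reads were found in 27.5% of MB/HB, 7.17% of VISp and 7.41% of CBX cells, with a median of 111.3 CPM in the positive MB/HB cells and 58.3 CPM in the positive VISp cells. The difference of CBX from MB/HB was not past the threshold without CBX MouseID-651221 (-3.13, adjusted p = 0.292) and was -5.41 (adjusted p = 0.0143) without CBX MouseID-614198.

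Counted together, 4 of the 7 genes were lower in CBX than in VISp and none was higher, where 10.6% of the 2599 genes tested were called, 5.35% lower and 5.27% higher. Their median difference was -1.20 against -0.05 over all genes tested. Between MB/HB and VISp 2 of 7 were lower and 1 higher, with 11.3% of all genes called (5.66% lower and 5.62% higher) and medians of -0.11 and -0.04. CBX was lower than MB/HB in 5 of 7 genes, with 8.89% of all genes called (5% lower and 3.89% higher) and medians of -2.33 and 0. CBX contributes to 2 of these comparisons with the same 2 mice, so their counts are not independent. Leaving out CBX MouseID-651221 left 2 of the 7 called against VISp, Dio2 and Slco1c1, with 5.25% of all genes called. It left 3 called against MB/HB, Dio2, Slco1c1 and Thrb, with 4.16% of all genes called. With log2 values averaged over cells the MB/HB differences from VISp were -3.14 for Dio2, -3.93 for Slco1c1 and 1.39 for Hr, all of them still called.

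**Figure D3:**
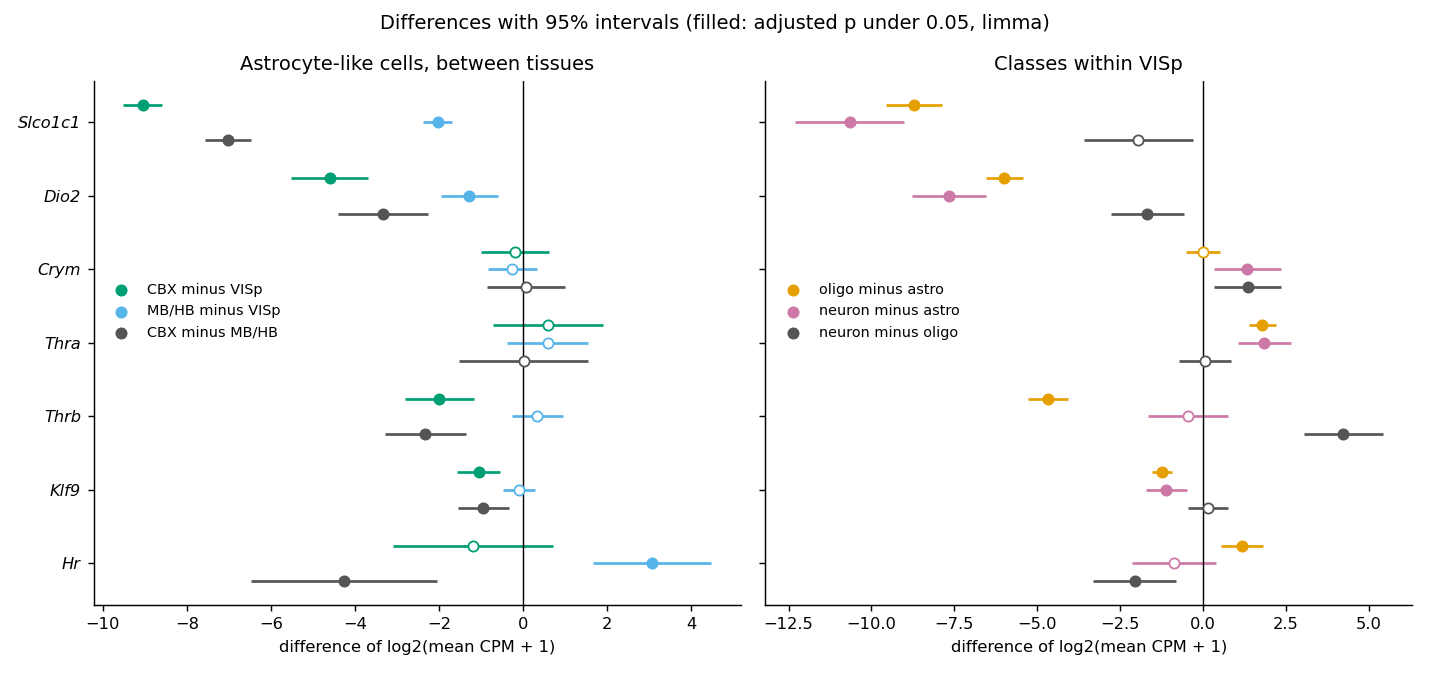
Differences of log2(mean CPM + 1) with 95% intervals for each gene, between tissues in astrocyte-like cells (left) and between classes within VISp (right); filled points have an adjusted p under 0.05 in limma. Slco1c1 and Dio2 lie left of 0 in all 3 tissue comparisons, whereas all 3 Thra tissue intervals cross 0.

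Within VISp the astrocyte-like cells fell mainly into 2 clusters, with 48.8% and 43.6% of the cells, and the widest gap between them was that of Hr. On the log2 scale and over mice with at least 5 cells, the means in the larger and the smaller cluster were 11.14 and 11.23 for Slco1c1, 7.64 and 7.74 for Dio2, 6.50 and 6.73 for Thrb, 4.50 and 4.27 for Thra, 7.48 and 7.32 for Klf9, and 2.74 and 1.03 for Hr. These cells share mice and the values are a description without a test.

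Other RNA moved with some of these results. Bergmann glia markers were at 13016 and 13822 CPM in the CBX mice, as given above, and their part in the CBX differences was not tested. The 6 endothelial markers summed to 629.3, 1108, 7.56 and 77.2 CPM in MB/HB mice MouseID-615516, MouseID-651222, MouseID-651228 and MouseID-651229, against 1.18 to 26.6 CPM in VISp, and the 5 mural markers reached 1286 CPM in MouseID-651222. Hr was 24.5, 99.8, 55.4 and 21.3 CPM in the same mice, and Slco1c1 was 557.2, 712.8, 439.6 and 560.4 CPM. The part of endothelial or mural RNA in the Hr and Slco1c1 differences was not tested. In the MB/HB mice Slco1c1 ran from 437.3 to 641.85 CPM once cells that carried RNA of another class were left out. Oligodendrocyte markers summed to 839 to 6262 CPM in MB/HB, 1935 and 2224 CPM in CBX and 171.1 to 1311 CPM in VISp. Without cells that carried RNA of another class, the same genes were called in all 3 tissue comparisons. All CBX and MB/HB mice were on plates with the AB prefix, and with AB plates alone the same genes were again called.

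The classes were compared within VISp, in the same way. No vector gave both astrocyte-like and oligodendrocyte-like values to these comparisons, so those classes and their vectors cannot be told apart. The 3 mice with neuron-like values also gave values of another class. These were astrocyte-like for MouseID-614201 and oligodendrocyte-like for MouseID-638254 and MouseID-651227. Of all 84 neuron-like cells there, 56 had reads of Gad1, the GABA-synthesising enzyme, and none of Slc17a7, a vesicular glutamate transporter. Such Gad1-only cells were 26 of 27 in MouseID-651227 and 15 of 21 in MouseID-638254 (both MBP_promoter), and 7 of 13 in MouseID-614201 (eHGT_374m). The neuron-like levels are those of this mix, and not of cortical neurons at large. Slco1c1 was lower in oligodendrocyte-like than in astrocyte-like cells by 222.2-fold (-8.71, SE 0.42, adjusted p = 3.43e-24). Its oligodendrocyte-like level ran from 0 over a median of 5.44 to 40.9 CPM in 22 mice, with 6 mice at 0 and reads in 3.48% of cells. Without cells that carried RNA of another class it was at most 7.60 CPM and 0 in 10 of 22 mice. In the 3 neuron-like mice, MouseID-614201, MouseID-638254 and MouseID-651227, Slco1c1 was 0, 1.85 and 0 CPM (-10.66 against astrocyte-like cells, SE 0.82, adjusted p = 1.13e-15). No oligodendrocyte-like or neuron-like mouse reached the lowest astrocyte-like mouse.

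Dio2 was lower in both other classes as well. Its oligodendrocyte-like level ran from 0 over a median of 2.66 to 12.8 CPM, 69.1-fold lower than in astrocyte-like cells (-5.99, SE 0.28, adjusted p = 1.94e-24). The neuron-like mice had 0, 0.262 and 0 CPM, from 1 of 61 cells (-7.67, SE 0.56, adjusted p = 1.47e-16). The groups did not overlap with the astrocyte-like mice. Between neuron-like and oligodendrocyte-like cells the Dio2 difference was -1.68 (SE 0.55, adjusted p = 0.0114), and that of Slco1c1 was -1.95 (SE 0.82, adjusted p = 0.0504). Both rest on levels near 0: the Dio2 call was lost without MouseID-614201 (-1.62, adjusted p = 0.05005), with 10 CPM added in place of 1 (-0.38, adjusted p = 0.369) and with log2 values averaged over cells (-0.26, adjusted p = 0.686). The Slco1c1 difference was past the threshold in 6 of 17 alternatives (smallest limma adjusted p = 0.0132), among them that without MouseID-638254 (-2.48, adjusted p = 0.0464). It was -0.52 (adjusted p = 0.518) without cells carrying RNA of another class.

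Thrb was lower in oligodendrocyte-like cells than in both other classes. The oligodendrocyte-like level ran from 0.127 over a median of 3.19 to 15.1 CPM, 23.4-fold lower than in astrocyte-like cells (-4.68, SE 0.30, adjusted p = 5.28e-19). The neuron-like mice had 65.2, 66.6 and 68.9 CPM, 16.01-fold above oligodendrocyte-like cells (4.23, SE 0.60, adjusted p = 4.63e-08), and every one of them lay above all 22 oligodendrocyte-like mice. Between neuron-like and astrocyte-like cells the difference was -0.46 (95% interval -1.67 to 0.75, adjusted p = 0.597), and its direction depended on how cells were averaged. A Thrb read was found in 81 of 84 neuron-like cells with a median of 68.4 CPM among them, and in 440 of 739 astrocyte-like cells with a median of 105.7 CPM among them. Averaging log2 values over cells in place of CPM gave 1.92 (adjusted p = 1.43e-07), with 83.2% of all genes then called.

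Thra was higher in both other classes than in astrocyte-like cells. The lowest, median and highest oligodendrocyte-like level was 60.1, 84.3 and 141.03 CPM, and the neuron-like mice had 87.8, 102.4 and 77.3 CPM. Thra was higher than in astrocyte-like cells in oligodendrocyte-like cells by 2.96-fold (1.79, SE 0.20, adjusted p = 6.58e-11) and in neuron-like cells by 3.04-fold (1.85, SE 0.40, adjusted p = 1.25e-04), although the highest astrocyte-like mice reached into both. Neuron-like minus oligodendrocyte-like was 0.06 (95% interval -0.74 to 0.85, adjusted p = 0.953), and with log2 values averaged over cells it was 1.13 (adjusted p = 0.00562). A Thra read was found in 61 of 61 neuron-like, 89.7% of oligodendrocyte-like and 48.0% of VISp astrocyte-like cells, and thinned to 50000 reads in 92.2%, 70.9% and 28.2%. Nr1d1, which overlaps Thra, was lower in oligodendrocyte-like (-4.48, adjusted p = 1.10e-20) and neuron-like cells (-2.78, adjusted p = 1.31e-05) than in astrocyte-like cells, and the part of Nr1d1 reads in the Thra values was not tested. Per kilobase Thra exceeded Thrb in all 22 oligodendrocyte-like mice, with means of 18.8 and 0.565 CPM per kilobase, and in all 3 neuron-like mice, with means of 19.3 and 9.04.

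**Figure D4:**
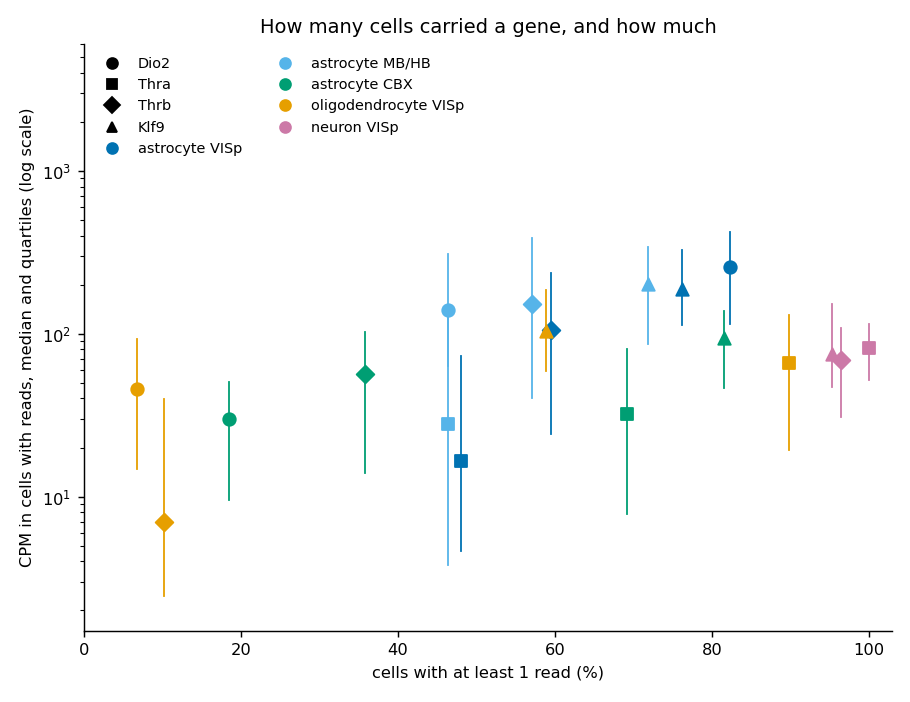
Median CPM among cells with reads (vertical, log axis, lines from the lower to the upper quartile) against the percentage of cells with at least 1 read (horizontal), for Dio2, Thra, Thrb and Klf9 over all cells of 5 class and tissue sets. Neuron-like cells lie at the right for Thra, Thrb and Klf9, with reads in 84, 81 and 80 of 84 cells, at medians of 68.4 to 81.7 CPM.

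Of the targets, Klf9 was lower in both other classes than in astrocyte-like cells. Its oligodendrocyte-like level ran from 28.1 over a median of 66.996 to 147.6 CPM (2.28-fold lower, -1.24, SE 0.15, adjusted p = 8.53e-10). The neuron-like mice had 186.1, 59.9 and 48.2 CPM (-1.11, SE 0.30, adjusted p = 0.00216). MouseID-614201, at 186.1 CPM, was within the astrocyte-like range and the other 2 lay below it. MouseID-614201 also differed from the other 2 in its vector and its mix of neuron types, as given above. The part of either in the Klf9 values was not tested. Without MouseID-614201 the neuron-like difference was -1.71 (adjusted p = 3.88e-05), and it was no longer past the threshold without MouseID-638254 (-0.89, adjusted p = 0.0502) or MouseID-651227 (-0.74, adjusted p = 0.0996). With log2 values averaged over cells it was 0.27 (adjusted p = 0.657). The neuron-like difference from oligodendrocyte-like cells was 0.13 (adjusted p = 0.810) and passed the threshold with log2 values averaged over cells (2.02, adjusted p = 6.41e-04).

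Hr was higher in oligodendrocyte-like than in astrocyte-like cells by 1.95-fold (1.18, SE 0.32, adjusted p = 0.00125). The lowest, median and highest oligodendrocyte-like level was 4.11, 12.2 and 24.1 CPM, so most of the range overlapped, and 18.7% against 7.17% of cells had a read. The neuron-like mice had 6.54, 1.71 and 0 CPM. They were lower than oligodendrocyte-like cells (-2.06, SE 0.62, adjusted p = 0.0053), a call lost without MouseID-651227 (-1.28, adjusted p = 0.182), with 1 value per vector (-1.56, adjusted p = 0.0951) and with log2 values averaged over cells (-0.44, adjusted p = 0.0742). Against astrocyte-like cells the neuron-like difference was -0.88 (adjusted p = 0.287), and it passed the threshold without MouseID-614201 (-1.74, adjusted p = 0.0413).

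Crym was at 0 in most VISp mice of each class, and its reads in neurons were unevenly spread. The neuron-like mice had 26.5, 0 and 0 CPM, and the call of a higher level than in astrocyte-like (1.34, SE 0.51, adjusted p = 0.029) and oligodendrocyte-like cells (1.34, SE 0.50, adjusted p = 0.0268) rested on MouseID-614201. Without that mouse the differences were -0.27 (adjusted p = 0.7095) and -0.25 (adjusted p = 0.775), and without either of the other 2 mice both were 2.13. The 2 calls were lost as well with AB plates alone (adjusted p = 0.0631 and 0.0553), with 0.1 CPM added in place of 1 (0.196 and 0.151) and with the class called per cell (0.179 and 0.0829). Over all 84 VISp neuron-like cells, including those of mice with fewer than 10, Crym reads were found in 9 cells of 7 mice. Those with reads of Slc17a7, the vesicular glutamate transporter of cortical excitatory neurons, and none of Gad1, the GABA-synthesising enzyme, held 7 of the 9 (7 of 20 cells in 13 mice, 35%, exact 95% interval 15.4 to 59.2%). Cells with both held 2 (2 of 8, 3.19 to 65.1%). Cells with Gad1 alone held none (0 of 56, which allows a share of up to 5.36%). Of the 9 positive cells, 7 lay between 139.7 and 742.8 CPM and the other two, both in MouseID-651225, at 8.13 and 20.8 CPM. The 2 MBP_promoter mice, MouseID-638254 and MouseID-651227, supplied 41 of the 56 Gad1-only cells, so the neuron type was tied to the vector. These intervals cover counting error among cells and not the spread between mice.

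**Figure D5:**
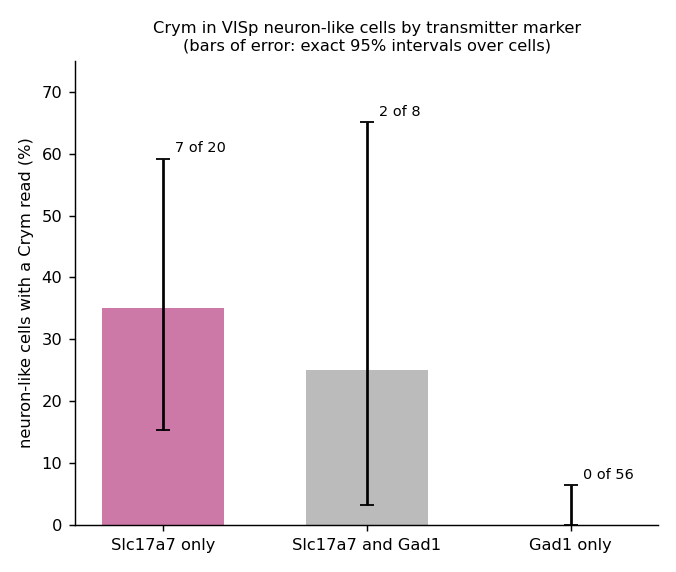
Percentage of VISp neuron-like cells with at least 1 Crym read (vertical), by reads of the transmitter markers Slc17a7 and Gad1; bars start at 0 and lines are exact 95% binomial intervals over cells. Crym was found in 7 of 20 cells with Slc17a7 alone and in 0 of 56 with Gad1 alone.

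Counted together, 6 of the 7 genes were called between oligodendrocyte-like and astrocyte-like cells, 2 higher and 4 lower. This stands beside 53.2% of all 2741 genes called (19.6% higher and 33.5% lower), with medians of -1.24 for the 7 genes and -0.16 for all genes. Between neuron-like and astrocyte-like cells 5 of 7 were called, 2 higher and 3 lower, beside 41.8% of all genes (25% higher and 16.8% lower) and medians of -0.88 and 0.06. Between neuron-like and oligodendrocyte-like cells 4 of 7 were called, 2 higher and 2 lower, beside 41.5% of all genes (29.1% higher and 12.4% lower) and medians of 0.06 and 0.24. Under quantile normalization the share of higher calls among all calls moved from 36.9% to 53.7% between oligodendrocyte-like and astrocyte-like cells, and from 70.2% to 55.4% between neuron-like and oligodendrocyte-like cells, and the first comparison still had 6 of 7 called. The astrocyte-like mice serve in 2 of these comparisons. The astrocyte markers summed to 192.6 to 1138 CPM in oligodendrocyte-like and 142.8 to 443.4 CPM in neuron-like mice, against 25439 to 32814 CPM in VISp astrocyte-like mice.

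No difference with the vector within a class was called for any of the 7 genes. Among 14 VISp astrocyte-like mice of 7 vectors 0 of 7 genes were called, where 0% of 2346 genes were called by the limma F-test and 4.65% had an unadjusted p under 0.05, with none of the 7 among them. Among 12 oligodendrocyte-like mice of 5 vectors 0 of 7 were called, where 0.0975% of 2052 genes were called by the same test and 5.85% had an unadjusted p under 0.05. Of the 7 genes that was so for 1, Thrb (limma p = 0.0478, adjusted p = 0.832). For Thrb the 2 MBP_promoter mice had 0.127 and 0.240 CPM and the 3 eHGT_410m mice 7.62 to 15.1 CPM. With 2 or 3 mice per vector, a p that misses the threshold does not show that vectors gave equal levels.

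Over the 19 VISp astrocyte-like mice, the genes most like each of the 5 abundant members were named by their correlation in log2(mean CPM + 1) among 1433 genes of at least 10 CPM. These are descriptions, and the mice share vectors and plates. The 1433 genes come from the 4698 gene columns used, and the other 27547 columns were not searched. Dio2 ran closest to Cdh20 (Pearson r = 0.91), its opposite-strand neighbour Gm26512 (0.90) and Ccn1 (0.87). Slco1c1 ran closest to Herc1 (0.67), Pycrl (0.66) and Abhd6 (0.65), and its correlation with Dio2 was 0.59. Thrb ran closest to Pcdh9 (0.85), Mdga2 (0.80) and Epha5 (0.77), and Thra to Fam135a (0.77), Fbxl4 (0.76) and Armt1 (0.68). Klf9 ran closest to Nmi (0.70), Tmem167 (0.66) and Mettl11b (0.65). The 2 receptors had a correlation of -0.01 with each other.

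Other genes of the pathway were read from lists chosen by name. Slc3a2, the heavy chain of amino acid carriers that also move thyroid hormone, was lower in CBX (-1.29, adjusted p = 7.34e-05) and in oligodendrocyte-like (-3.09, adjusted p = 2.61e-30) and neuron-like cells (-2.47, adjusted p = 1.98e-14). Of its light chains, Slc7a5 was lower in oligodendrocyte-like cells (-4.90, adjusted p = 1.86e-23), and Slc7a8 was higher in CBX than in VISp (3.71, adjusted p = 9.78e-04) and in neuron-like than in astrocyte-like cells (4.84, adjusted p = 7.60e-11).

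Slco1a4, another organic anion carrier known from brain endothelium, was higher in MB/HB than in VISp astrocyte-like cells (4.54, adjusted p = 4.91e-06). Its level in mice MouseID-615516, MouseID-651222, MouseID-651228 and MouseID-651229 was 194.3, 102.99, 0 and 15.6 CPM, from 12 cells in all. The value of MouseID-615516 came from 1 cell with 3951 reads, and the 2 mice with the highest level were those with the highest endothelial marker sums given above. The part of endothelial RNA in this difference was not tested.

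Of the 6 genes of deiodination and its control, Dio1 had no read in any class and tissue set, and Dio3, the inactivating deiodinase, had reads in 1 CBX astrocyte-like cell. Its 0 of 739 VISp astrocyte-like cells allow a share of up to 0.406%, and its 0 of 949 oligodendrocyte-like cells up to 0.316%. Wsb1, part of a ubiquitin ligase that acts on the Dio2 protein, was lower in CBX (-1.23, adjusted p = 0.0325) and in oligodendrocyte-like cells (-1.70, adjusted p = 5.12e-11) and neuron-like cells (-1.18, adjusted p = 0.00816) than in VISp astrocyte-like cells. Usp33, which removes ubiquitin from the Dio2 protein, was higher in neuron-like than in astrocyte-like cells (1.38, adjusted p = 8.00e-05). Secisbp2, needed to make selenoproteins such as the deiodinases, was lower there (-1.22, adjusted p = 0.0169).

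Of the 3 other binding proteins, Aldh1a1 was higher in MB/HB (2.49, adjusted p = 1.16e-10) and CBX (1.47, adjusted p = 3.25e-04) than in VISp astrocyte-like cells; it is also among the leading genes of the main MB/HB cluster, although clustering did not use it. Ttr, transthyretin, was higher in CBX (2.68, adjusted p = 0.00124), with reads in 8 of 81 cells; markers of the choroid plexus, where Ttr is abundant, summed to 0.190 to 1.94 CPM in the CBX mice, and their part in the Ttr value was not tested. Pkm was higher in MB/HB than in VISp astrocyte-like cells (0.50, adjusted p = 0.0489), and within VISp it was lower in oligodendrocyte-like (-1.12, adjusted p = 4.62e-16) and higher in neuron-like cells (1.84, adjusted p = 5.71e-13) than in astrocyte-like cells.

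Of the 12 receptor partners and coregulators, 1 was lower in CBX (Ncoa1, -1.03, adjusted p = 0.0473) and 2 in MB/HB (Ncor1, -0.79, adjusted p = 0.00211, and Hdac3, -1.47, adjusted p = 0.0491), with none higher in either; of all genes 10.6% and 11.3% were called there. Between oligodendrocyte-like and astrocyte-like cells 3 were higher and 5 lower, beside 53.2% of all genes called, so nothing particular to the list is read from these counts. The coactivator gene Ncoa1 (-2.70, adjusted p = 1.23e-17) and the retinoid X receptor gene Rxrg (-2.62, adjusted p = 3.50e-08) were lower and Rxrb was higher (1.07, adjusted p = 2.36e-06) in oligodendrocyte-like cells.

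Of the 10 other genes known to respond to the hormone, 8 could be tested between tissues and 7 between classes. In CBX 1 was higher and 2 lower than in VISp, beside 10.6% of all genes called: Pcp2, a Purkinje cell gene (4.63, adjusted p = 3.13e-07), Nrgn, neurogranin of cortical neurons (-4.16, adjusted p = 0.00142), and Atp2a2 (-0.90, adjusted p = 0.0199). In MB/HB, beside 11.3% of all genes called, Me1 was higher (0.97, adjusted p = 0.00794), and Nrgn (-2.84, adjusted p = 0.00376) and Thrsp (-0.79, adjusted p = 0.00187) were lower. Neuron markers summed to 119.6 and 308.5 CPM in CBX, 14.4 to 432.6 CPM in MB/HB and 31.5 to 335 CPM in VISp astrocyte-like mice, and the part of neuronal RNA in the Pcp2 and Nrgn values was not tested. Thrsp, a T3 target of lipid synthesis, was lower in oligodendrocyte-like (-5.07, adjusted p = 9.51e-19) and neuron-like cells (-5.89, adjusted p = 1.38e-10) than in astrocyte-like cells, and Me1 was lower in both as well (-2.34, adjusted p = 2.50e-12, and -1.77, adjusted p = 0.0015). Camk4 was higher in neuron-like than in astrocyte-like cells (4.31, adjusted p = 4.25e-08).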

How the data were processed

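The authors deposited 1 table of CPM values, with cells in rows and 32245 gene columns, from single cells sequenced by SMARTer v4 and aligned with STAR to mm10, per the submitters' processing notes; the counter, its strand setting and the normalization are not given in the sources used here. Every cell summed to 1000000, and all 9484843 positive values were whole multiples, within 0.01 reads, of the cell's smallest value, so the depth could be read from the table. The deposited sample names, a unit of the kind other, tied each row to its cell, mouse and vector. The fits used 4698 gene columns, of which 150 were chosen by name and 4548 were drawn at random with seed 30, and 27547 columns of per-sample values were not used. The members and lists were chosen with earlier results of these data known.

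Cells were clustered with Python 3.11.15, scikit-learn 1.9.0 and igraph 0.11.9 by the Leiden method (leidenalg 0.10.2), at resolution 1 on the 2000 most variable genes, 30 principal components and 15 neighbours, leaving out the 7 genes, their pathway and the genes that overlap them. All 10 clusters were named, each from at least 3 markers, and for 2022 of 2040 cells the markers of the cell alone gave the same class. Class names may differ from the study's own. No doublet caller was used; cells in which over 50% of another class's markers had reads were left out as an alternative. No cell profile and no row name occurred more than once.

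Mean CPM per mouse and class was tested with limma 3.58.1 (R 4.3.3, trend) on log2(mean CPM + 1), for genes with a mean of at least 1 CPM in at least 2 mice. Tissues were fitted together in astrocyte-like cells and classes together in VISp, and p-values were adjusted over all genes tested by the Benjamini-Hochberg method. The mice are separate animals per the labels. Intervals for shares are exact (Clopper-Pearson) at 95%, and a share of 0 allows up to 3 cells; neither covers more than counting error. Genes were named by membership and, for the pathway lists, those past the threshold and the deiodinases; 1 carrier, and the counts over the transporter list that include it, are not reported here. Exon lengths and gene coordinates are from GENCODE vM21 (GRCm38) and promoters from RefSeq (GRCm38.p6). Alternatives were other pseudocounts (0.1 and 10 CPM), other filters, means of log2 values over cells, quantile normalization, other class calls, AB plates only, the mouse as a block, 1 value per vector, and leaving out, in turn, each CBX and MB/HB mouse in the tissue comparisons, each of the 3 mice with neuron-like cells in the class comparisons, and each mouse in the vector tests.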

Additional observations from a re-analysis of the deposited data

Results flagged for a closer look

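Some cells entered no comparison because their mouse had fewer than 10 cells of the class, or because the class was not compared in that tissue. In 19 cases a gene had reads in more such cells than the 3 that a count of 0 allows, which says only that reads were present, and the values are given without a test. In the 15 neuron-like cells of MB/HB, 12 of them from MouseID-651222 and 1 from each of the other 3 mice (a count of 0 would allow 20%), Thra had reads in 100% of cells, Thrb in 26.7% and Klf9 in 53.3%. In VISp, by contrast, 81 of 84 neuron-like cells had a Thrb read; this difference between tissues was not tested, and 9 of the 15 MB/HB cells, all from MouseID-651222, had reads of neither Slc17a7 nor Gad1.

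In the 23 neuron-like VISp cells outside the comparisons (15 mice, limit 13.0435%), Thra and Klf9 had reads in 100%, Thrb in 91.3%, Slco1c1 in 39.1%, Crym and Hr in 30.4% each and Dio2 in 26.1%. Of these cells 14 carried RNA of another class, and their astrocyte markers summed to 2109 CPM, against 142.8 to 443.4 CPM in the neuron-like mice compared. The part of that RNA in the Slco1c1 and Dio2 shares was not tested.

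In the 10 oligodendrocyte-like cells of MB/HB (3 mice, limit 30%), Thra had reads in 90% of cells, Klf9 in 80%, and Slco1c1 and Thrb in 40% each, and 4 of the cells carried RNA of another class. In the 13 oligodendrocyte-like VISp cells outside the comparisons (8 mice, limit 23.1%), Thra had reads in 100%, Klf9 in 69.2%, Dio2 and Slco1c1 in 46.2% each and Hr in 38.5%. Of these, 7 carried RNA of another class, and the astrocyte markers summed to 6259 CPM, against 192.6 to 1138 CPM in the oligodendrocyte-like mice compared.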

How the results depend on the processing

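Over the alternatives, most values for the 7 genes kept their direction and side of the threshold. Of the rest, 24 changed sign, with or without a change of call. Among those that kept their sign, 25 lost a call and 9 gained one. Some alternatives, such as at least 5 cells per mouse, gave the main counts over all genes again, so these numbers do not measure stability. With 1 of the 6 CBX and MB/HB mice, or of the 3 mice with neuron-like cells, left out (no other VISp mouse was left out of these comparisons), members called ranged from 2 to 4 between CBX and VISp (2 without MouseID-651221), 3 to 5 between CBX and MB/HB (3 without MouseID-651221), and 2 to 5 between neuron-like and oligodendrocyte-like cells (2 without MouseID-614201, 5 without MouseID-638254). With log2 values averaged over cells, 3 of 6 members tested were called between CBX and MB/HB. The differences that changed sign were as follows. Between MB/HB and VISp, Thrb was -0.023 with that averaging and Klf9 0.0196 with reads summed over cells. Between CBX and MB/HB, Thra was -0.017 with 10 CPM added, -0.0019 with the class called per cell, -0.014 without cells carrying other RNA, -0.077 with summed reads, and -0.26 to 0.30 with 1 mouse left out. Between oligodendrocyte-like and astrocyte-like cells, Crym was 0.0057 with 10 CPM added, 0.12 under quantile normalization, 7.05e-04 with the mouse as a block, 0.029 with 1 value per vector, and -0.022 to 0.0044 with 1 mouse left out. Between neuron-like and astrocyte-like cells, averaging log2 values gave 1.92 for Thrb, 0.10 for Hr and 0.27 for Klf9, and Crym ran from -0.27 to 2.13 with 1 mouse left out. Between neuron-like and oligodendrocyte-like cells, quantile normalization gave -0.13 for Thra and -0.071 for Klf9, and with 1 mouse left out Crym ran from -0.25 to 2.13, Thra from -0.042 to 0.14 and Klf9 from -0.46 to 0.53. The cause of these changes was not tested.

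Averaging log2 values called 35.9%, 16.7%, 39.7%, 69.5%, 83.2% and 79.8% of all genes in the order of the comparisons in the text, with 84.4%, 36.2%, 86.9%, 50.4%, 84.7% and 87.9% of those calls higher (49.6%, 49.8%, 43.7%, 36.9%, 59.9% and 70.2% with mean CPM), and gave medians over all genes of up to 1.57, in neuron-like against astrocyte-like cells, where mean CPM gave 0.06. Thinning to 50000 reads moved 10 of 35 shares of cells by more than the spread between mice. The mouse as a block changed no call among the 7 genes; no paired analysis was possible between tissues because each mouse gave a single tissue. The planned edgeR fit was not run, since the deposited unit is CPM. With 2 CBX and 3 neuron-like mice, 1 mouse decides several calls.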
